A study of Drosophila melanogaster with 96 samples.

Results

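The 10 genes described here are the Turandot genes TotA, TotB, TotC, TotF, TotM, TotX and TotZ, the immune-induced gene Diedel, and upd3 and Socs36E of the JAK-STAT pathway. They were taken by FlyBase symbol, 10 of the 17370 gene rows counted in single flies. The set was chosen by measured values: in an earlier look at the same counts, TotX, TotM, TotC, TotA and Diedel differed between the DMSO groups of males at 0 h. The members' male values at 0 h are therefore a description and carry no test.

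In Drosophila, unpaired ligands such as upd3, a cytokine related to the interleukin-6 family, bind the receptor dome, which signals through the Janus kinase hop to the transcription factor Stat92E. Stat92E raises transcription of Socs36E, an inhibitor that feeds back on the receptor complex. Turandot genes code for small secreted peptides that the fat body makes after heat, septic injury, dehydration and other stress, with inputs from JAK-STAT, MAP kinase and Imd signalling. Diedel codes for a small secreted protein induced by injury and infection that restrains Imd signalling.

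All flies were virgin adults of the white-eyed strain w1118, 3 days past eclosion when they were placed singly in wells. They ate chemically defined liquid food for 24 h, were held on phosphate buffered saline without food for 6 h, and then received the same food with a red dye and either no or some dimethyl sulfoxide (DMSO), a solvent, at 0.4, 0.2 or 0.1% by volume. Feeding lasted 0, 2, 4 or 8 h, with 3 females and 3 males for each level and time, giving 32 groups and 96 libraries of polyA RNA, each from 1 whole fly. Each replicate is thus a separate animal. At 0 h a DMSO level names the food a fly was assigned to, with 0 h allowed for eating it. Each time had its own feeding plate, so time and plate cannot be told apart. All females were sequenced in run0452. Males on the 3 foods with DMSO were all sequenced in run0456, while males without DMSO lay in run0452 at 0 and 2 h, in both runs at 4 h (2 flies and 1 fly) and in run0456 at 8 h.

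The libraries held 958896 to 9215796 gene counts (median 4777950). Scaled to library size as CPM, 3 counts stood for 0.326 to 3.13 CPM. All 3 yolk protein genes had a count in each of the 48 females, and all 6 male markers (roX RNAs, accessory gland and testis genes) in each of the 48 males. One female library held male transcripts: replicate 3 at 8 h on 0.4% DMSO had 188.3 CPM of the male dosage compensation RNA roX1, where the next highest female had 3.07. Its Acp26Aa and Mst84Db were 572.1 and 401.3 CPM, against 1.72 and 0.717 in the next highest females. Females at 8 h on DMSO foods, this one included, held at least 4260 CPM of summed yolk protein genes, and such males at most 9.8. It thus held RNA typical of both sexes, and how this arose was not tested. Replicate 2 of the males at 0 h on 0.4% DMSO is placed at 0 h by its title and at 8 h by another field, and the title was followed. Whole-body RNA was present as labelled: all 5 brain and eye and all 4 muscle markers had a count in every fly, as did 3 of 4 fat body and 5 of 6 gut markers in both sexes. The fat body list was Lsp2, Fbp1, apolpp and Npl4, and how particular each is to that tissue was not tested here. Of 6 blood cell markers 4 had a count in each female and 5 in each male.

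The members differed widely in how much RNA they gave. TotA, TotC, TotX and Socs36E had at least 1 count in each of the 96 flies. TotF had 0 counts in all 96 flies, as did its neighbour TotE, the Turandot gene outside the set. TotZ summed to 20 counts over 48 females and 12 over 48 males. TotB summed to 228 and 71 counts, which is 0.120% and 0.208% of the TotA counts in the same flies. The cytokine gene upd3 summed to 615 counts in females and 110 in males. A filter on low counts left 8 members in females, without TotF and TotZ, and 6 in males, without TotB and upd3 as well. Male Diedel passed that filter through the flies at 0 h by which the set was chosen: it had more than 3 counts in 5 of 48 males, 4 of them at 0 h. Counts over the 6 members in fed males include it, and there its level was too low for its test to bear on a difference.

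Set against exon length, the order among females was TotA, TotC, TotM, TotX, Diedel, Socs36E and upd3, at median levels of 275.8, 156.3, 98.1, 10.2, 6.99, 4.81 and 0.356 CPM per kilobase. In males the order was TotA, TotC, TotX, Socs36E and TotM, at medians of 44.9, 12.04, 8.37, 4.61 and 4.18 CPM per kilobase, with Diedel and upd3 at a median of 0. TotX and Socs36E thus stood above TotM in males and below it in females. In the Ensembl annotation of the BDGP6 assembly, TotA, TotC, TotB and TotZ lie in that order on one strand of chromosome arm 3R, with a transposon remnant between TotA and TotC. TotX lies elsewhere on 3R, TotM, TotF and TotE on 2L, Diedel on 3R, upd3 on the X and Socs36E on 2L. Neighbours differed in level: in females the highest level of TotB was 13.0 CPM per kilobase and that of TotZ 1.51, against 9654 for TotA and 7364 for TotC. Related copies can share reads, so levels within this cluster are uncertain to that extent.

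**Figure D1:**
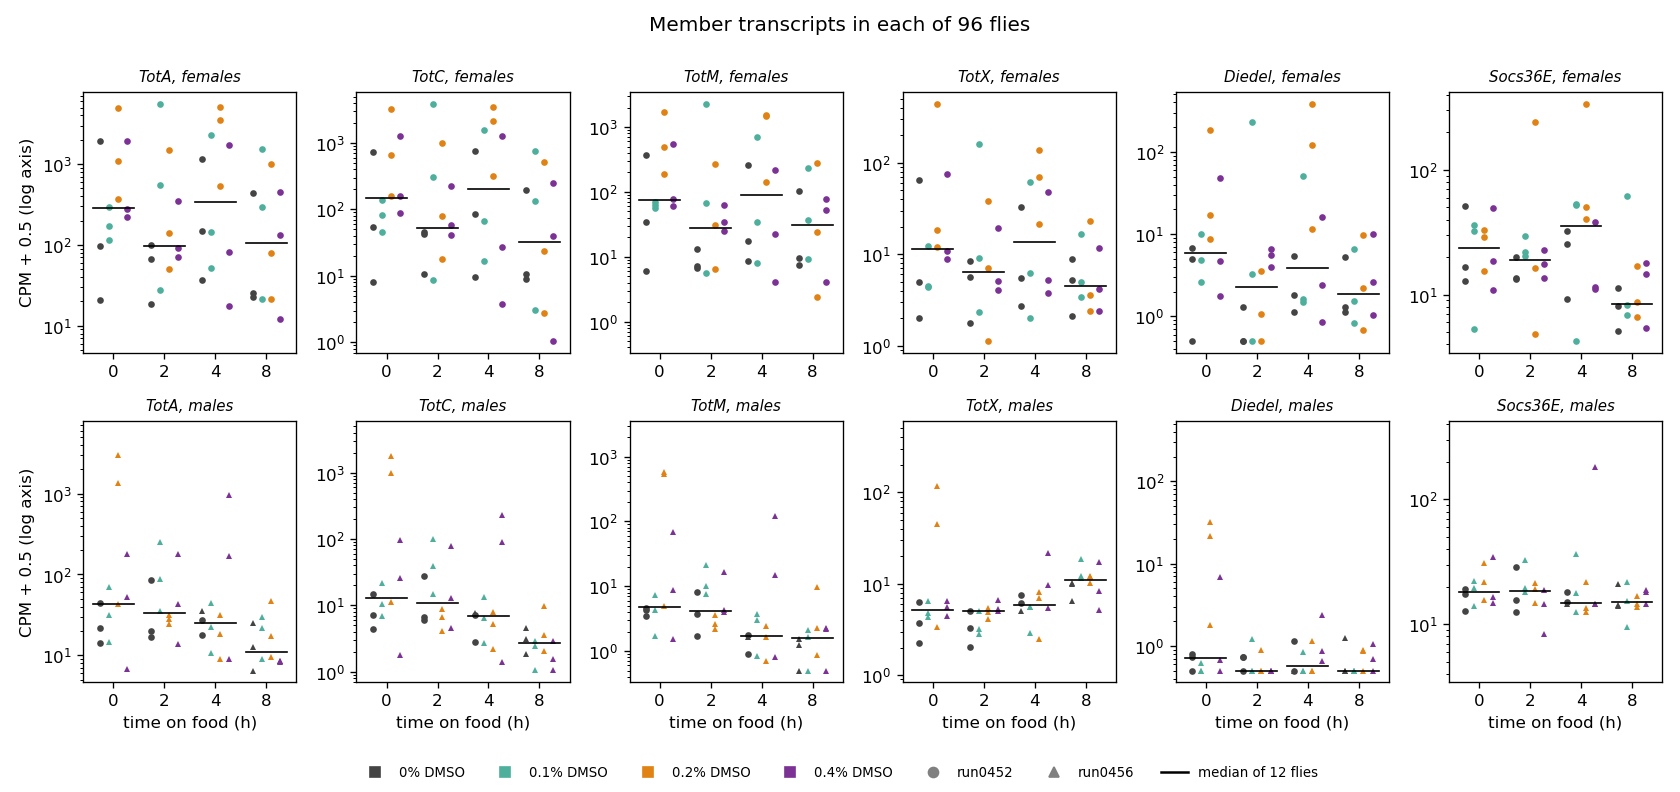
CPM + 0.5 on a log axis for 6 members in each of 48 females (top) and 48 males (bottom) against hours on the food. Each point is 1 fly, colour gives the DMSO level, shape the sequencing run, and the bar the median of 12 flies. Female TotA runs from 11.7 to 5590 CPM over the 4 times together, while most males sit low and 2 flies at 0 h stand above 1000 CPM.

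Females of the same time differed widely, with the highest TotA level 131.2 to 310.9 times the lowest among 12 flies. CPM below are scaled within a sex. At 0 h TotA ran from 20.5 to 4883 CPM among 12 females with a median of 285.2, at 2 h from 17.98 to 5590 with a median of 95.8, at 4 h from 16.9 to 5148 with a median of 340.2, and at 8 h from 11.7 to 1537 with a median of 105.6. The 4 times overlapped over most of their range. TotA passed 1000 CPM in 12 of the 48 females: 4 at 0 h, 2 at 2 h, 5 at 4 h and 1 at 8 h. By food, 2 of these 12 were without DMSO, 3 on 0.1%, 5 on 0.2% and 2 on 0.4%.

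TotC lay lower than TotA at each time, with medians of 149.2, 52.0, 202.0 and 31.6 CPM at 0, 2, 4 and 8 h. TotM medians were 73.3, 27.4, 87.6 and 30.4 CPM. TotX, which gave far less RNA, had medians of 10.8, 5.83, 13.2 and 4.04 CPM, and a highest value of 443.0 CPM in a female at 0 h on 0.2% DMSO. Diedel medians were 5.31, 1.77, 3.42 and 1.35 CPM, with a highest value of 384.7 CPM at 4 h on 0.2% DMSO. Socs36E had a narrower range, from 3.75 to 338.6 CPM over the 48 females with a median of 16.9. The 2 h and 8 h medians lay below the 0 h and 4 h medians for each of the 5 genes TotA, TotC, TotM, TotX and Diedel. The genes were read from the same flies and followed one another, so these are not 5 separate patterns. None of the 5 was called in the edgeR comparisons of times in females given below.

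The females that were high in one Turandot gene were high in the others. The 10 females with most TotA included 9 of the 10 with most TotC, 8 of the 10 with most TotM, 9 of the 10 with most TotX and 7 of the 10 with most Diedel. Over the 48 females, Spearman's rho of log2(CPM + 1) with TotA was 0.987 for TotC, 0.960 for TotM, 0.929 for TotX and 0.827 for Diedel. After the mean of each of the 16 groups was taken off, rho was 0.991, 0.952, 0.905 and 0.816. These are descriptions: each point holds values from 1 library, so depth and scaling are shared. TotC counts were 61.4% of TotA counts over all females and ran from 37.2 to 73.3% in the 12 females above 1000 CPM of TotA, while TotX ran from 1.03 to 9.07% in these 12.

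Of the 10 females with most Socs36E, 8 were among the 10 with most TotA, and of the 10 with most upd3, 4 were. The highest upd3 level, 50.7 CPM, came from replicate 3 of the females at 4 h on 0.2% DMSO, which also had the highest Socs36E, 338.6 CPM, and the highest Diedel, 384.7 CPM. The next highest upd3, 23.8 CPM, came from replicate 2 at 2 h on 0.2% DMSO, which had the next highest Socs36E, 241.0 CPM. TotA was 3511 and 1505 CPM in these 2 flies. The female with most TotA, 5590 CPM at 2 h on 0.1% DMSO, had 1.24 CPM of upd3 and 29.0 CPM of Socs36E. Over 48 females rho was 0.768 between upd3 and Socs36E, 0.679 between upd3 and TotA, and 0.702 between Socs36E and TotA.

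Immune peptide genes, targets of Imd and Toll signalling, differed in how many females held them at a high level. Drs, which codes for drosomycin, ran from 128.4 to 8065 CPM, above 50 CPM in all 48 females, and Def, which codes for defensin, passed 50 CPM in 12. The other 13 genes of the list each passed 50 CPM in 0 to 6 females. DptA, which codes for the peptide diptericin, passed 50 CPM in 5 of 48 females. Those 5 held 5488, 967.7, 62.1, 158.6 and 90.9 CPM of DptA and 1941, 364.4, 3511, 1537 and 996.5 CPM of TotA. Among the 12 females above 1000 CPM of TotA, 9 had DptA between 0 and 4.22 CPM. The female with most TotA had 1.86 CPM of DptA. Over 48 females rho between TotA and DptA was 0.494. At 2 h against 0 h Dro (log2 -5.35, SE 1.26), DptA (-5.23, SE 1.68) and Mtk (-4.84, SE 1.27) were lower (edgeR adjusted p = 0.00779, 0.0353 and 0.0127). These were the largest changes among called genes of the list (2 by DESeq2), where edgeR called 13.6% of all genes. Among females at 0 h, only those with 5488 and 967.7 CPM of DptA passed 50 CPM of it.

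Heat shock genes did not share one direction with TotA. Of 16 listed, 9 passed the filter in females, and over 48 females rho with TotA was below 0 for 5 and above 0 for 4. It was lowest for the small heat shock genes Hsp26 (-0.543) and Hsp27 (-0.526), and highest for Hsp68 (0.558), which codes for a chaperone of the Hsp70 family, and for the co-chaperone gene stv (0.482). The genes were named by these values, and this is a description over libraries that share depth and scaling.

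**Figure D2:**
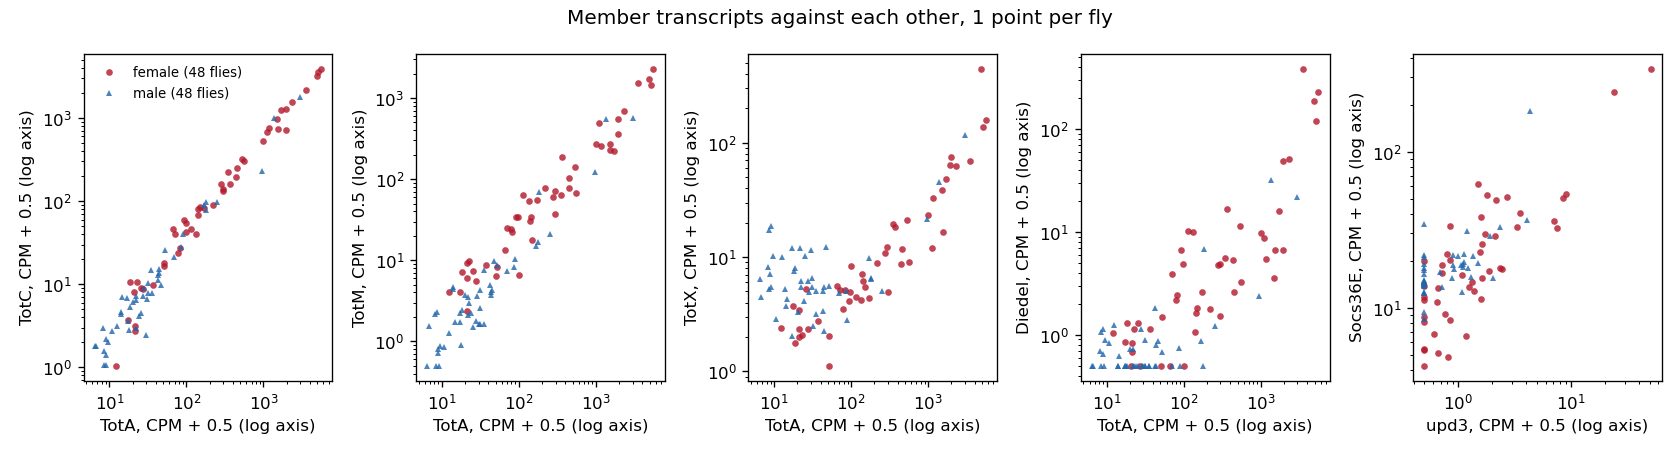
CPM + 0.5 of pairs of members on log axes, 1 point per fly, for 48 females (circles) and 48 males (triangles). TotC and TotM follow TotA in both sexes, and TotX follows TotA in females (rho 0.929) with a lower value over all 48 males (rho 0.0148, and 0.452 with group means taken off).

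In males the levels were lower for most flies. TotA ran from 5.97 to 3001 CPM over 48 males with a median of 26.0, and passed 100 CPM in 7 of 48, against 29 of 48 females on their own scale. All females came from run0452 and 40 of the 48 males from run0456, so this contrast mixes sex with sequencing run. Of the 7 males 3 were at 0 h, the time by which the set was chosen. TotC had a median of 6.38 CPM, TotM 2.31 and TotX 5.04. For TotX, Spearman's rho with TotA over 48 males was 0.0148, and 0.452 after the group means were taken off. Pearson's r between TotA and TotX was 0.485, and 0.0502 without the 2 flies farthest from the TotA median, so it rests on those 2 flies. Diedel had a count in 23 of 48 males and Socs36E had a median of 16.2 CPM, and rho with TotA was 0.265 and 0.0144. These male values include the flies at 0 h by which the set was chosen.

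The spread between like flies was large for members set beside genes of a similar level. The biological coefficient of variation, the spread between flies of a group beyond counting error, was 1.31 for TotA, 1.47 for TotC, 1.29 for TotM, 1.16 for TotX and 1.39 for Diedel in females. Of the 500 genes nearest in level, 491, 494, 496, 495 and 497 varied less. In males it was 0.845 for TotA, 0.931 for TotC, 0.997 for TotM and 0.491 for TotX, and 495, 496, 499 and 480 of 500 genes varied less. TotX was the least variable of the tested Turandot genes in both sexes. The male values include the flies at 0 h by which the set was chosen.

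In females none of the 8 tested members passed at 2, 4 or 8 h against 0 h or at 8 h against 2 h by edgeR. The 12 flies of a time were compared as the mean over the 4 foods in a fit of all 48 females, with edgeR's quasi-likelihood test and Benjamini-Hochberg adjustment over 10060 genes at 0.05. Between 2 h and 0 h, 13.6% of genes were called and 0 members (0 at an unadjusted p under 0.05, 0 by DESeq2). Between 4 h and 0 h 0% of genes were called (1615 at an unadjusted p under 0.05, 255 by DESeq2) and 0 members (0 unadjusted, 0 by DESeq2). Between 8 h and 0 h 3.59% of genes were called and 0 members (3 unadjusted, namely TotX, TotB and Diedel, and 1 by DESeq2). Of all genes 20.8% had an unadjusted p under 0.05 there. Between 8 h and 2 h 29.8% of genes were called and 0 members (1 unadjusted, Socs36E, and 0 by DESeq2), beside 46.8% of all genes unadjusted.

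The lowest adjusted p of a member in these 4 comparisons was that of Socs36E at 8 h against 2 h, with a log2 fold change of -1.10 (SE 0.51, edgeR adjusted p = 0.0916). Leaving out 1 fly moved it from -1.53 to -0.34 (adjusted p from 0.0242 to 0.590). It was called in 2 of these 24 fits, without replicate 3 at 8 h on 0.1% DMSO and without replicate 1 at 2 h on 0.2%, and the smallest change was without replicate 2 at 2 h on 0.2%, the fly with 241.0 CPM of Socs36E. TotX at 8 h against 0 h had a log2 fold change of -2.10 (SE 0.80, adjusted p = 0.126). Its mean was 54.6 ± 124.7 CPM at 0 h and 6.88 ± 6.66 CPM at 8 h (SD, n = 12 each), and 9 of the 12 flies at 8 h lay below the 0 h median. By DESeq2 it passed (log2 -2.10, adjusted p = 0.0434). Without the female at 8 h that held male transcripts, edgeR gave log2 -2.32 (adjusted p = 0.0964). Over all 24 fits that each left out 1 fly, it ran from -2.53 to -1.25 (adjusted p from 0.0692 to 0.441). It was -1.25 without replicate 2 at 0 h on 0.2% DMSO and -1.38 without replicate 1 at 0 h on food without DMSO. For TotA at 2 h against 0 h the log2 fold change was -1.06, with a 95% interval from -2.83 to 0.71, and at 4 h against 0 h it was 0.40 (SE 0.90). Both a lower and a higher level at 2 h lie within that interval.

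DMSO was compared with none at each time, over the 3 levels at once. In females 0 of 8 members passed at any time. Of all genes, 0.00994% were called at 0 h, 0.00994% at 4 h and 0.954% at 8 h, and at 2 h 0% were (266 had an unadjusted p under 0.05, and DESeq2 called 0). Members at an unadjusted p under 0.05 numbered 2 at 0 h, 5 at 2 h, 3 at 4 h and 0 at 8 h, and DESeq2 called 0 members at each time. Of all genes 9.24%, 2.64%, 5.37% and 3.23% had such a p at 0, 2, 4 and 8 h. The members followed one another over the same females, so these are not counts of separate results. At 2 h, TotA was 99.2, 17.98 and 65.6 CPM without DMSO, 27.0, 558.3 and 5590 CPM on 0.1%, 50.3, 1505 and 139.4 CPM on 0.2%, and 348.5, 70.3 and 92.4 CPM on 0.4%. For TotA, flies of every DMSO level overlapped those without. TotM was 6.10, 6.63 and 12.8 CPM without DMSO and 62.7, 24.7 and 33.6 CPM on 0.4%, and upd3 was 0, 0.158 and 0 CPM without and 1.07, 1.96 and 0.748 CPM on 0.4%. In counts, upd3 was 0, 1 and 0 without DMSO and 5, 8 and 5 on 0.4%. For these 2 genes the 3 flies on 0.4% all lay above those without DMSO, and neither passed over the 3 levels (edgeR). Both were picked after their values were seen. The share of all genes that separate this way was not counted, so nothing is drawn from the separation.

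At 2 h Diedel was 0, 0.789 and 0 CPM without DMSO, 0, 2.75 and 227.6 CPM on 0.1%, 0, 3.06 and 0.574 CPM on 0.2%, and 5.13, 3.43 and 6.13 CPM on 0.4%. The 3 flies on 0.4% all lay above those without DMSO, and the test over the 3 levels gave an adjusted p of 0.655 (edgeR). Here too the share of all genes that separate this way was not counted, and nothing is drawn from it. For 0.4% DMSO against none over 2 to 8 h of feeding, where 0.00994% of genes were called, 0 of 8 members passed (0 unadjusted, 0 by DESeq2). For TotA that log2 difference was 0.73 (SE 1.04), for Diedel 2.03 (SE 1.18), for Socs36E 0.23 (SE 0.60) and for TotX 0.50 (SE 0.93).

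**Figure D3:**
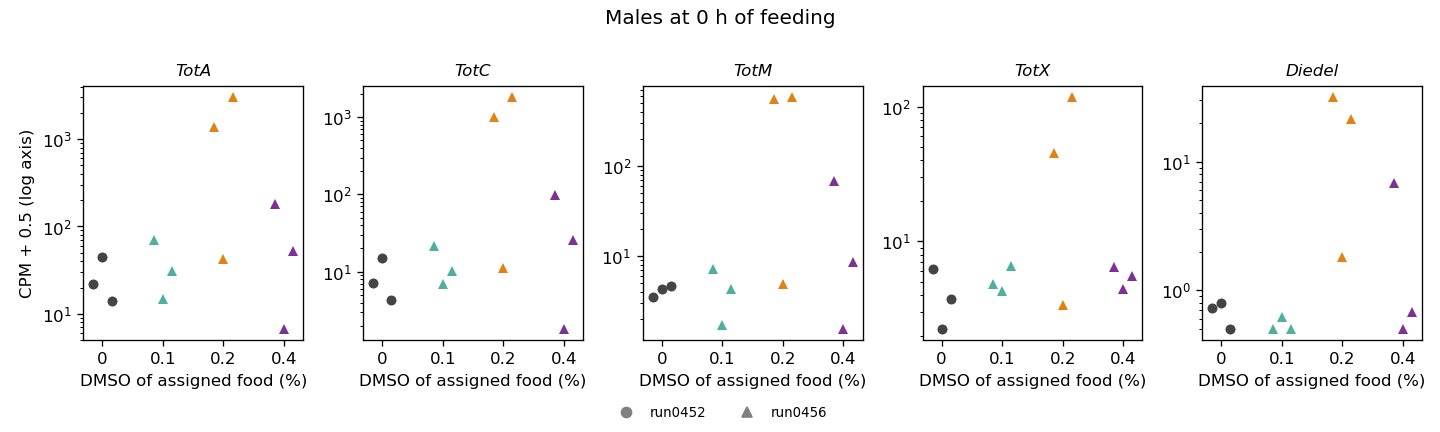
CPM + 0.5 on a log axis for 5 members in the 12 males at 0 h, by the DMSO level of the food they were assigned to. Circles are run0452 and triangles run0456, 3 flies per level. Replicates 1 and 3 of the 0.2% group stand above every other fly for all 5 genes, and replicate 2 of that group sits among the rest.

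Males at 0 h gave the pattern by which the set was chosen, and it came from single flies. TotA was 21.6, 43.7 and 13.6 CPM in the 3 flies assigned to food without DMSO, all of run0452. It was 69.2, 14.2 and 30.8 CPM in those assigned to 0.1%, 1359, 42.3 and 3001 CPM for 0.2%, and 180.5, 6.22 and 51.6 CPM for 0.4%, all of run0456. Replicates 1 and 3 of the 0.2% group were the 2 males above 1000 CPM, and replicate 2 of that group lay within the range of the 0% and 0.1% groups. The 0.1% flies, of the same run as the 0.2% flies, overlapped the flies of the other run.

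The same 2 males were high in the other members. Replicates 1 and 3 held 996.1 and 1797 CPM of TotC, 545.8 and 572.8 CPM of TotM, 44.9 and 116.3 CPM of TotX and 31.2 and 21.2 CPM of Diedel. Among the other 10 males at 0 h, replicate 1 of the 0.4% group was next, with 97.1 CPM of TotC, 67.9 CPM of TotM and 6.36 CPM of Diedel but 5.92 CPM of TotX. Socs36E was 30.7 and 21.4 CPM in the 2 high males and 12.2 to 34.0 CPM over all 12, so these males were not set apart by the feedback inhibitor. In upd3 they had 0.685 and 0.388 CPM, where the 12 males ran from 0 to 0.985 CPM. DptA was 1.89 CPM in replicate 1 and 23.7 CPM in replicate 3, where the other 10 males had 0 to 2.96 CPM. TotC was 73.3 and 59.9% of TotA counts in them, within the range of the 12 females above 1000 CPM of TotA.

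Between 2 and 8 h on the foods with DMSO, TotX rose and TotC fell in males. These 18 flies, 9 at each time, came from 1 sequencing run. TotX was 2.31, 4.53 and 2.69 CPM at 2 h on 0.1%, 4.45, 3.66 and 4.99 CPM on 0.2%, and 4.54, 6.12 and 4.81 CPM on 0.4%. At 8 h it was 18.4, 11.6 and 11.1 CPM on 0.1%, 11.4, 9.63 and 11.7 CPM on 0.2%, and 4.71, 16.9 and 7.73 CPM on 0.4%. Of the 9 flies at 8 h, 8 lay above every fly at 2 h. How many of all genes separate to this extent was not counted. The mean went from 4.23 ± 1.18 to 11.5 ± 4.18 CPM (SD, n = 9 each), a log2 fold change of 1.44 (SE 0.36, edgeR adjusted p = 0.0154).

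TotC was 39.3, 98.1 and 14.4 CPM at 2 h on 0.1%, 8.40, 3.66 and 6.14 CPM on 0.2%, and 12.2, 77.0 and 4.14 CPM on 0.4%. At 8 h it was 0.574, 2.43 and 1.91 CPM on 0.1%, 3.08, 1.54 and 9.25 CPM on 0.2%, and 0.554, 1.08 and 2.45 CPM on 0.4%. Of the 9 flies at 8 h, 8 lay below every fly at 2 h, and the share of all genes that do so was not counted. The mean went from 29.3 ± 35.2 to 2.54 ± 2.66 CPM (SD, n = 9 each), a log2 fold change of -3.17 (SE 0.87, edgeR adjusted p = 0.0292). The lowest TotC values rest on few counts, down to 1 over the 48 males, so the size of this change is imprecise.

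These 2 calls stood among 6 members tested, male Diedel included, where 4.24% of the 12644 genes were called, 3.37% higher and 0.87% lower at 8 h. Ranked by edgeR's p, TotX was at place 225 and TotC at place 340 of these genes. TotA had a log2 fold change of -2.02 (SE 0.66) that missed the threshold (edgeR adjusted p = 0.0745) and passed by DESeq2 (adjusted p = 0.0248). It averaged 76.7 ± 83.0 CPM at 2 h and 17.3 ± 13.4 CPM at 8 h (SD, n = 9 each), with 5 of 9 flies at 8 h below every fly at 2 h. The share of all genes that do so was not counted either. TotM had a log2 fold change of -1.73 (SE 0.92, adjusted p = 0.316) and Socs36E of -0.22 (SE 0.32, adjusted p = 0.770). TotX was called in 17 of 18 fits that each left out 1 fly. Without replicate 2 at 8 h on 0.4% DMSO its log2 fold change was 1.20 (adjusted p = 0.0868). TotC was called in 10 of 18, and without replicate 2 at 2 h on 0.4% DMSO its log2 fold change was -2.53 (adjusted p = 0.109).

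**Figure D4:**
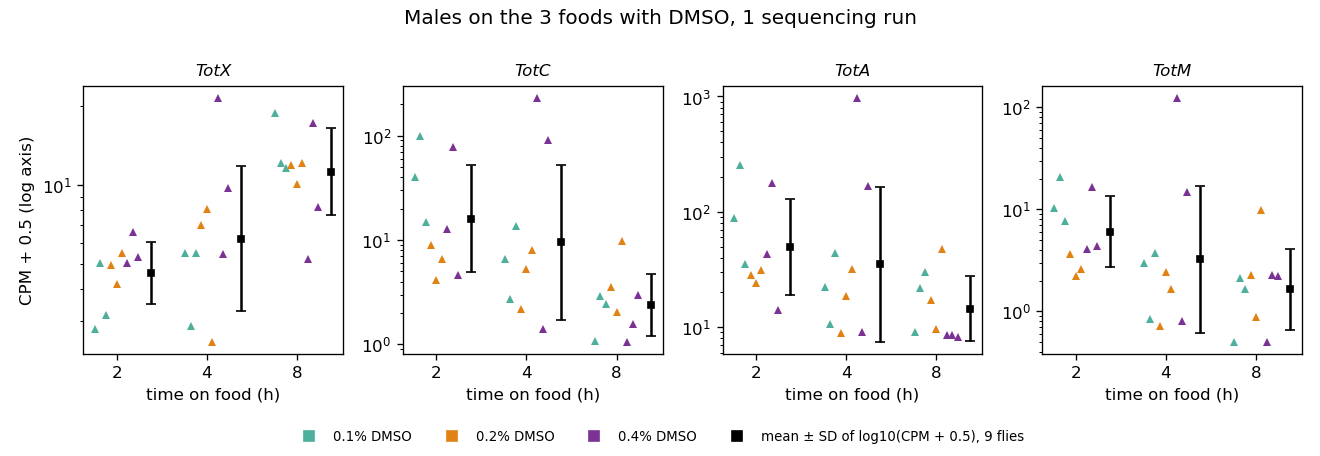
CPM + 0.5 on a log axis for TotX, TotC, TotA and TotM in males on the 3 foods with DMSO at 2, 4 and 8 h, 9 flies at each time. Squares with bars give the mean ± SD of log10(CPM + 0.5). TotX is higher in 8 of 9 flies at 8 h than in any fly at 2 h, and TotC is lower in 8 of 9. How many of all genes separate this way was not counted.

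The order of TotX and TotC differed between the males at 2, 4 and 8 h, where each male was measured once. It restates the TotX and TotC differences above in the same flies and is no further test. Time and feeding plate cannot be told apart here either. TotX counts stood above TotC counts in 1 of 9 males on DMSO foods at 2 h, in 4 of 9 at 4 h and in 9 of 9 at 8 h. As a percentage of TotC counts, TotX had a median of 37.1% at 2 h (4.62 to 116.1%) and of 580% at 8 h (126 to 3200%). Male TotC went down to 1 count, with more than 3 counts in 45 of 48 males, so the highest percentages rest on few counts. Among males without DMSO TotX was above TotC in 0 of 3 at 2 h, 1 of 3 at 4 h and 3 of 3 at 8 h, but there the 2 h and 8 h flies came from different sequencing runs. Without DMSO, TotX was 1.52, 4.54 and 2.80 CPM at 2 h and 9.44, 5.97 and 9.64 CPM at 8 h, and these 3 flies at 8 h all lay above those at 2 h. How many of all genes did so was not counted. TotX counts stood above TotC counts in 2 of the 48 females.

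TotX lies across from Grik, a glutamate receptor gene on the opposite strand, in the BDGP6 annotation. Grik averaged 27.5 ± 4.91 CPM at 2 h and 29.8 ± 11.7 CPM at 8 h in the same 18 males (SD, n = 9 each), a log2 fold change of 0.08 (SE 0.16, adjusted p = 0.849). Among marker lists, 2 of 6 gut genes rose (Jon99Cii and Amy-p, digestive enzymes) and 1 of 5 brain and eye genes fell (trp) between 2 and 8 h by edgeR. In the gut list 5 genes had an unadjusted p under 0.05 and DESeq2 called 4. In the brain and eye list these counts were 2 and 1. Of all genes 4.24% were called and 18.4% had an unadjusted p under 0.05 in this comparison (edgeR). Summed gut markers ran from 1193 to 7279 CPM at 2 h and from 5724 to 10802 CPM at 8 h, and brain and eye markers from 2968 to 5197 CPM and from 2685 to 8872 CPM. By edgeR 0 of 3 fat body and 0 of 5 blood cell genes tested were called (0 unadjusted and 0 by DESeq2 in both lists), and 0 of 4 muscle genes (1 unadjusted, 1 by DESeq2). Of 6 male markers 3 rose by edgeR, the accessory gland gene Acp26Aa and the testis genes Mst87F and Mst84Db (5 of the list unadjusted, 3 by DESeq2). The male list's sum ran from 3352 to 5799 CPM at 2 h and from 5235 to 7290 CPM at 8 h. Summed fat body markers ran from 388.6 to 1217 CPM at 2 h and from 448.3 to 864.7 CPM at 8 h. The part of these markers in the TotX and TotC differences was not tested. In whole flies, fewer cells of a type and less RNA per cell cannot be told apart.

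Neither step between 2 and 8 h gave a called member by itself. Between 4 and 2 h on DMSO foods 0% of genes were called (788 unadjusted, 2 by DESeq2) and 0 of 6 members (0 unadjusted, 0 by DESeq2). Between 8 and 4 h 0.878% of genes were called and 0 of 6 members (4 unadjusted, namely TotA, TotC, TotX and Socs36E, and 1 by DESeq2). Of all genes 13.4% had an unadjusted p under 0.05 there. TotX averaged 7.07 ± 5.69 CPM at 4 h (SD, n = 9), with a log2 fold change of 0.48 (SE 0.38) from 2 to 4 h and of 0.96 (SE 0.37) from 4 to 8 h. TotC averaged 39.2 ± 75.8 CPM (SD, n = 9) at 4 h, spread by 1 fly at 226.7 CPM.

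The only call among members over DMSO levels by edgeR came from a comparison that holds that fly. In males at 4 h, where 1.19% of genes were called over the 3 DMSO levels, 1 of 6 members, TotA, passed (edgeR adjusted p = 0.0367), while DESeq2 called 4. TotA was 17.5, 27.1 and 34.9 CPM without DMSO, 21.9, 10.2 and 43.5 CPM on 0.1%, 8.44, 17.99 and 31.2 CPM on 0.2%, and 960.3, 8.50 and 167.5 CPM on 0.4%. Replicate 2 on 0.4% lay below all 3 flies without DMSO. Replicate 1 on 0.4% came from the shallowest library, of 958896 counts. It held 7061 CPM of DptA, 182.9 CPM of Socs36E, 3.81 CPM of upd3 and 1404 CPM of Tep2, where the other 11 males at 4 h had 30.3 to 48.5 CPM of Tep2. All 11 tested immune peptide genes were called by edgeR in the same comparison, and 3 by DESeq2. Without this fly TotA had a log2 fold change of 1.74 on 0.4% DMSO and an adjusted p of 0.997, and 0 genes were called by edgeR. The call was lost in 9 of 12 fits that each left out 1 fly, and with sequencing run as a factor (adjusted p = 0.112).

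At 2 h DMSO gave 0 of 6 male members by edgeR (0 unadjusted, 0 with DESeq2), beside 0% of genes (980 unadjusted, 67 with DESeq2). At 8 h it again gave 0 of 6 (0 unadjusted, 0 with DESeq2), beside 0.00791% of genes. Over 2 to 8 h, 0.4% against 0.1% DMSO gave 0 of 6 members (0 unadjusted, 0 by DESeq2) and 0% of genes (838 unadjusted, 1 by DESeq2). For TotX that log2 difference was 0.46 (SE 0.37), and for TotA 0.60 (SE 0.65).

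Between the sexes, 52% of 13061 genes were called at 2 h without DMSO but 0 of 8 members (0 unadjusted, 0 by DESeq2), with 3 flies of 1 run on each side. On the scale set over all 96 libraries, TotA was 82.7, 17.2 and 53.7 CPM in the females and 18.5, 97.1 and 21.9 CPM in the males, so the sexes overlapped. TotX was 6.61, 1.21 and 4.15 CPM in the females and 1.69, 5.15 and 3.14 CPM in the males, and overlapped too. The change from 2 to 8 h on DMSO foods differed between the sexes for 0 of 8 members after adjustment, where 0.00766% of genes were called. TotX came nearest, with a change lower in females than in males by a log2 difference of -2.56 (SE 0.97, edgeR adjusted p = 0.303). The females at 8 h include the library with male transcripts, and without it the log2 difference was -2.91 (edgeR adjusted p = 0.135), with 7 genes called in place of 1. Its female mean on DMSO foods was 26.8 ± 50.8 CPM at 2 h and 7.55 ± 7.49 CPM at 8 h (SD, n = 9 each).

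The rest of the JAK-STAT pathway was taken as a list of 16 genes of ligands, receptors, kinase, inhibitors and targets. In females 2 of 13 tested genes were called at 2 h against 0 h: chinmo, a transcription factor gene downstream of Stat92E, rose (log2 1.02, SE 0.32, adjusted p = 0.0300), and Stat92E fell (log2 -0.30, SE 0.10, adjusted p = 0.0376). These 2 of 13 (3 by DESeq2) stand beside 13.6% of all genes called, a share near that of the list. At 8 h against 0 h DESeq2 called 2 of the list, beside 704 of all genes. By edgeR 3 of the list had an unadjusted p under 0.05 there, beside 20.8% of all genes. Nothing is drawn from these counts. At 2 h against 0 h the list's median log2 fold change was -0.08, against -0.04 over all genes tested. At 8 h against 2 h et, which codes for a receptor that dampens dome signalling, fell (log2 -0.999, SE 0.38, adjusted p = 0.0456), as did vir-1, a virus-induced target (log2 -0.92, SE 0.29, adjusted p = 0.0203). These 2 of 13 (2 by DESeq2) stand beside 29.8% of all genes. Tissue markers moved in the same comparisons: 4 of 5 brain and eye and 3 of 4 muscle genes rose at 2 h against 0 h, and all 5 and all 4 fell at 8 h against 2 h. Summed brain and eye markers ran from 1296 to 3830 CPM at 0 h, from 1523 to 5088 CPM at 2 h and from 909.2 to 3030 CPM at 8 h. Summed muscle markers ran from 1017 to 6364 CPM, from 1291.6 to 13729 CPM and from 1370 to 4672 CPM. The part of these markers in the calls was not tested. In males 0 of 14 tested genes were called by edgeR at 8 h against 2 h on DMSO foods (0 unadjusted, 0 by DESeq2), with a list median of -0.04 against 0.02 over all genes tested. Over DMSO levels 1 of 14 was called in males at 4 h, Tep2, in the comparison that holds the fly described above. Between the sexes at 2 h without DMSO, where 52% of all genes were called, 5 of 14 were higher in females, among them Socs16D (log2 1.08, SE 0.24, adjusted p = 0.000120), and 2 were lower, of which the ligand gene upd1 had a log2 difference of -6.21 (SE 0.77, adjusted p = 2.13e-10). At the members' end of the pathway, upd3 had a log2 difference of -3.80 (SE 1.956) in that comparison and did not pass (adjusted p = 0.0990).

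Genes outside the set were ranked by how closely they followed the Turandot genes over the flies of a sex, as Spearman's rho with the mean standardised log2(CPM + 1) of the tested Turandot genes. In 48 females the 5 nearest of 10052 genes were CG30002 (rho 0.904), Phk-3 (0.837), the thioester protein gene Tep2 (0.821), Sid (0.813) and Nepl21 (0.806). On the same measure Diedel reached 0.844, Socs36E 0.718 and upd3 0.689. In 48 males the 5 nearest of 12638 genes were et (0.608), CG14963 (0.555), NimB3 (0.541), CG30151 (0.536) and Apoltp (0.528). The male values lay well below those of females, and TotX, although part of the score, reached 0.296 there. With group means taken off, TotX reached 0.690 in males, and the 5 genes 0.495, 0.369, 0.478, 0.545 and 0.514 in the same order. The male score and ranking include the flies at 0 h by which the set was chosen. In females Tep2 is one of the listed JAK-STAT targets, and in males et is one of the listed receptors. All points of a sex share the scaling of their libraries, and these are descriptions over 48 flies.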

How the data were processed

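Single whole flies were measured, 1 library each. Values are raw counts, whole numbers per gene as the authors deposited them. Per the submitters' processing notes, the tools were HTSeq 0.6.1p1, TopHat2 2.1.0, STAR 2.4.2a, bcl2fastq 1.8 and CASAVA 1.8.2, in no stated role. Tables were counted by strand, per their deposited names. Fly RNA was pooled with RNA of 2 other insects, per the labels. No source here names a build, so no coordinates are printed; strand, neighbours and exon lengths come from the Ensembl annotation of BDGP6. Spike-ins and 5 summary lines (8.73 to 23.3% of a library) were left out.

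Counts were tested with edgeR 4.0.16 (R 4.3.3): TMM scaling, a filter on low counts by group, and Benjamini-Hochberg adjustment over all genes tested at 0.05. Females (48 libraries, 16 groups) and males were fitted apart, and comparisons of sexes used all 96. The quasi-likelihood test gives no SE. Each SE is the size of the log2 fold change divided by the square root of the test's F statistic. The 95% intervals use a normal quantile on that SE, so both are approximate. Counts were also simulated, with changes put into genes drawn at random from all genes tested. The males' test of 8 h against 2 h recovered 81 of 100 genes changed by log2 1 and 96 of 100 by log2 2 (9 false calls among 12644 genes). The females' test of 2 h against 0 h recovered 66 and 95 of 100 (19 among 10060). Members varied more than most genes of their level, so these recoveries do not apply to them, and recovery for members was not simulated.

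The members, lists, comparisons and alternatives were chosen with earlier results of these data known. Where called genes of a list were named for a comparison, they were up to 3 by size of change. Not every list or call is described. Tissue markers, immune peptide and heat shock genes, Grik and single flies were named after their values were seen. Alternatives were median-of-ratios size factors, no filter, ribosomal RNA left out, a replicate block, run as a factor, single foods, DESeq2 1.42.0 and leaving out flies. Floors cover counting error only.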

Additional observations from a re-analysis of the deposited data

How the results depend on the processing

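Outside the fits that leave out flies, 89 of 95 counts of called members stayed within 1.5 times their value, of which 81 were 0 in both fits and so say little about stability, and 77 of 82 single-gene results kept direction and call; none reversed. DESeq2 gave 1 member in females at 8 h against 0 h (TotX) and 1 in males at 8 h against 4 h, where edgeR gave 0, and 4 in males over DMSO levels at 4 h, where edgeR gave 1. That last count was 0 with a replicate block and 0 with run as a factor. The mean of 0 and 2 h without DMSO gave 1 member between the sexes, but it holds male values at 0 h, the time by which the set was chosen, and is no test of the members. Leaving out 1 fly gave 0 to 2 members in males at 8 h against 2 h, 0 to 4 in males over DMSO levels at 4 h, and 0 to 1 in females at 2 h against 0 h and at 8 h against 2 h. The cause was not tested. For the 2 comparisons over all 96 libraries, flies were left out by replicate number, and 1 female with male transcripts by itself.

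Replicate numbers do not pair the flies: 125 of 360 same-numbered pairs in females and 73 of 360 in males had deviations correlated above 0.1, and 14 of 48 flies in each sex were closest to their own number. With the replicate block, males at 8 h against 2 h kept 2 called members.

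Genes called differed by over 1.5 times in females at 4 h against 0 h (0 to 255), at 8 h against 0 h (361, 704 by DESeq2, 1 on food without DMSO alone), at 2 h against 0 h (1373, 3 on that food), at 8 h against 2 h (2994, 1944 with no filter), and over DMSO levels at 0 h (0 to 18), 4 h (0 to 41) and 8 h (96, 53 to 783) and for 0.4% against none (1 to 5). In males they did so at 4 h against 2 h (0 to 2), at 8 h against 4 h (111, 25 to 303), over DMSO levels at 2 h (0 to 67), 4 h (150, 59 to 301) and 8 h (1 to 11), and for 0.4% against 0.1% (0 to 1). Leaving out 1 fly gave 187 to 830 genes in males at 8 h against 2 h (536 with all flies; 187 without replicate 2 at 8 h on 0.4% DMSO, 830 without replicate 1 at 8 h on 0.1%, and 8 of 18 fits differed by over 1.5 times), 0 to 322 at 8 h against 4 h, 0 to 387 over DMSO levels at 4 h and 0 to 367 at 8 h (367 without replicate 2 on 0.1%). In females it gave 790 to 2227 at 2 h, 0 to 117 at 4 h and 28 to 562 at 8 h against 0 h, 1502 to 5301 at 8 h against 2 h, and 0 to 148 over DMSO levels at 8 h. Depth limits TotB, TotZ, upd3 and male Diedel, whose counts were often 0. It also limits male TotC, which went down to 1 count.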
